A study of Mus musculus with 12 samples.

Results

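The proliferin genes Prl2c2, Prl2c3 and Prl2c5 were followed across cultured mouse cells of stromal and epithelial origin. They are 3 of the 24537 genes in the expression table, taken by their symbols, and 3 of the 5 rows whose symbol begins with Prl2c. They were chosen by their FPKM values, because Prl2c5 was high in keratinocytes and low in epithelial cells converted from stroma within the animal, so their levels in those cells, and in keratinocytes against any other group, are given as a description with no test. The other 2 rows add nothing of their own. Prl2c4 is listed over the same stretch of chromosome 13 as Prl2c3 with nearly the same reads, and Prl2c1 had at most 1 read in a library.

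RNA sequencing covered 12 libraries in 4 groups of 3, each group made from the same 3 mice, and every mouse was of the strain Pdgfra-creERxLSL-tdTomato, in which a Cre driven by the Pdgfra gene can switch on a red reporter. Adipose-derived stromal cells (ADSCs) were Pdgfra-positive cells of subcutaneous fat, grown in DMEM with 10% fetal bovine serum. The in vitro iSEPs, short for induced stratified epithelial progenitor cells, were epithelial cells obtained from such ADSCs in culture. The in vivo iSEPs were epithelial cells obtained from Pdgfra-positive ADSCs inside the animal and then cultured, and the keratinocytes were primary cultures from back skin. These last 3 groups grew in keratinocyte medium without serum, so the medium changed together with the cells in each comparison with ADSCs. Treatments, ages and the factors used for conversion are not given in the sources used here.

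Proliferins are secreted glycoproteins of the prolactin family, best known from the trophoblast giant cells of the mouse placenta, where they promote blood vessel growth. They bind the cation-independent mannose 6-phosphate receptor, encoded by Igf2r, which also takes up IGF2. Outside the placenta they are known as mitogen-regulated proteins that cultured fibroblasts make after serum or growth factors, and AP-1 proteins (dimers of Jun and Fos) and the glucocorticoid receptor act at a proliferin promoter. Proliferin transcripts have also been described in hair follicles and healing skin of the mouse.

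The 3 genes lie within a short stretch of chromosome 13 (mm10, equal to GRCm38). Prl2c3 (NM_011118) spans chr13:12790821-12800079 on the minus strand, Prl2c2 (NM_031191) spans chr13:12996124-13005330 on the minus strand, and Prl2c5 (NM_181852) spans chr13:13182716-13191925 on the plus strand. Their GENCODE M21 coding sequences run over 5 exons each. Those of Prl2c2 and Prl2c3 were 99.6% identical, with 3 substitutions in 675 bases, while Prl2c5 differed from Prl2c2 by 20 substitutions and 6 gap bases (96.1% identical) and from Prl2c3 by 21 substitutions and 6 gap bases (96.0%). The stretch of 120 alignment columns with the most differences is printed below as an example. It holds 10 of the 25 columns of the coding alignment in which Prl2c5 differs from both other copies. It crosses from coding exon 4 to coding exon 5, and capitals mark bases that differ between Prl2c5 and the other two, gaps included. Read 5′ to 3′ on the coding strand, the genomic spans, intron included, are chr13:12996332-12997324 for Prl2c2, chr13:12791028-12792031 for Prl2c3 and chr13:13190729-13191718 for Prl2c5.
Prl2c2: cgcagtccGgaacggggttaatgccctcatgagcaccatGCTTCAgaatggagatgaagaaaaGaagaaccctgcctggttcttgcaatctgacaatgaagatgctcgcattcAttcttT
Prl2c3: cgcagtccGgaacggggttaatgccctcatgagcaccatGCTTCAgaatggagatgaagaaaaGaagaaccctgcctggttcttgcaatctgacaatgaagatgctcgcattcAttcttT
Prl2c5: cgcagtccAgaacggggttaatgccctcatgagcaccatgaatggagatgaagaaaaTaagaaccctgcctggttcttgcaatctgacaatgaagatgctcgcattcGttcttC
Prl2c2 and Prl2c3 were identical in this window, and Prl2c5 lacked 6 bases that both of them carry.

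How far a read can tell the copies apart follows from these differences. Of all windows of 50 bases along the GENCODE transcript, 10.5% in Prl2c2, 21.4% in Prl2c3 and 61.4% in Prl2c5 occurred in no other gene's transcript. With windows of 100 bases the shares were 33.6%, 37.7% and 91.3%. The read length and the treatment of reads that match several places are not given in the sources used here, so the levels of Prl2c2 and Prl2c3 in particular are uncertain, and part of the reads listed under one copy may come from another.

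RefSeq (GRCm38.p6) promoter sequences were matched for 2 of the 3 genes, Prl2c3 and Prl2c5. The 250 bases before each start are printed as an example, and their part in the levels was not tested. Capitals mark the bases that differ, and both read 5′ to 3′ towards the gene. The first lies at chr13:12800080-12800329 on the minus strand and the second at chr13:13182466-13182715 on the plus strand.
Prl2c3: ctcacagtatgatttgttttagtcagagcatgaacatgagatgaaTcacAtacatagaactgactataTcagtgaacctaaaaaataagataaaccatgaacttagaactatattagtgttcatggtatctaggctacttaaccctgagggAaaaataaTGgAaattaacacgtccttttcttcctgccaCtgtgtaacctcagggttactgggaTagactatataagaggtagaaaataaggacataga
Prl2c5: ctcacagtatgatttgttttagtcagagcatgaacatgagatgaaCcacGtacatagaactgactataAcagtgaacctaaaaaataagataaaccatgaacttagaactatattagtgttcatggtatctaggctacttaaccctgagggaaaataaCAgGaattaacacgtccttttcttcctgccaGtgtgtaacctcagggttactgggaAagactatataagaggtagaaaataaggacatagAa
They were 96.0% identical, with 8 substitutions and 2 gap columns in an alignment of 251 columns. The letters TGANTCA, a loose form of the AP-1 core in which N is any base, were searched on both strands. They matched once in the Prl2c3 promoter, as TGAATCA, and not in that of Prl2c5. Of 32851 promoters of the same length, 6.75% had a match to this loose form. Neither promoter held the stricter form with C or G at N. AGAACA, part of the sites of the glucocorticoid receptor, matched neither (16.1% of all promoters hold it), and TATAA matched once in Prl2c3 and 2 times in Prl2c5 (22.8%). These are matches of letters only.

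Before the values, the libraries were compared. Listed genes took between 21010000 and 27770000 reads in a library. The unit, FPKM, counts fragments relative to transcript length and library depth, and 10845 to 11349 genes were at 1 FPKM or more. The keratinocyte marker list of 8 genes (such as Krt5 and Krt14) summed to 12.4 to 13.7 FPKM in ADSCs and to 10363 to 23396 FPKM in the other 9 libraries. The stromal list of 8 genes (such as Col1a1) summed to 8845 to 11163 FPKM in ADSCs, 91.1 to 304 in iSEPs made in vitro, 29.6 to 176 in those made in vivo and 27.7 to 35.4 in keratinocytes. The labelled cell types thus carried their markers. The in vivo iSEP library of mouse 3 stood apart from the other 2 of its group. It had the lowest keratinocyte sum of the 9 epithelial libraries, 10363 FPKM, and the highest stromal sum of its group, 176 FPKM. The keratins of simple epithelia stood apart too, chosen after their values were seen: Krt8 was at 103 FPKM there against 0.159 and 0.166 in mice 1 and 2, and Krt18 at 95.5 against 2.79 and 2.66. In keratinocytes Krt8 ran from 21.9 to 33.6 FPKM and Krt18 from 27.5 to 37.3, so that library exceeded them in both. Results that rest on it are given with and without it, and its part in them beyond that was not tested.

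Prl2c5 was the most abundant of the 3 genes per length in the iSEPs and keratinocytes of each mouse. Its level in keratinocytes was 59.189, 171.335 and 169.289 FPKM in mice 1, 2 and 3, which placed it at ranks 1086, 275 and 287 of 24537 genes. In vitro iSEPs had 14.554, 11.004 and 26.308 FPKM in the same order of mice. In vivo iSEPs had 1.021, 0.907 and 26.052 FPKM. Keratinocytes of mouse 1 were the lowest of their group, yet every keratinocyte library lay above every other library, and in vivo iSEPs of mouse 3 lay far above those of mice 1 and 2. In ADSCs the gene was at 0.037, 0 and 0.043 FPKM, which is 1, 0 and 1 reads. The low in vivo values rested on 24 and 23 reads, and the keratinocyte values on 1495, 4154 and 4269 reads. In bulk RNA, fewer cells that express a gene and less RNA per cell cannot be told apart.

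**Figure D1:**
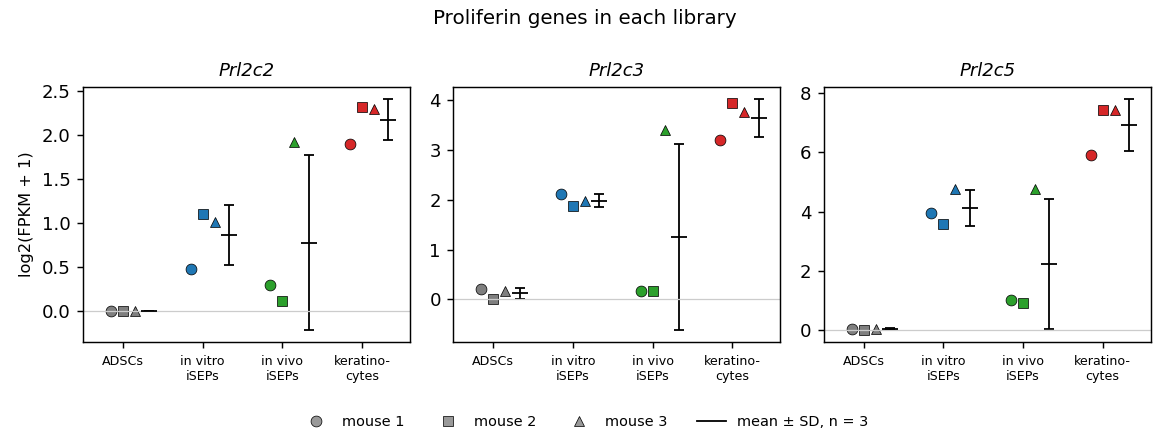
Levels of Prl2c2, Prl2c3 and Prl2c5 as log2(FPKM + 1) in each library, with a separate vertical axis for each gene. Points are libraries, symbols are mice, colours are groups, and black marks are the mean ± SD of 3 libraries. All 3 genes are at or near 0 in ADSCs and highest in keratinocytes on average, and the in vivo iSEP library of mouse 3 lies above the other 2 of its group.

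The group means of Prl2c5 were 133 ± 64.2 FPKM (SD, n = 3) in keratinocytes, 17.3 ± 8.01 in iSEPs made in vitro, 9.33 ± 14.5 in those made in vivo and 0.0267 ± 0.0233 in ADSCs. In vitro and in vivo iSEPs, next to each other in that order, overlapped through in vivo mouse 3 alone. In vivo mice 1 and 2, at 1.021 and 0.907 FPKM, lay below the lowest in vitro library at 11.004 FPKM. The log2 difference of in vivo from in vitro iSEPs, not tested, was -1.87, and -3.13 without in vivo mouse 3. The mean in keratinocytes was 14.3 times that in in vivo iSEPs and 7.71 times that in in vitro iSEPs. Without the in vivo iSEPs of mouse 3 the first ratio was 138, and without the keratinocytes of mouse 1 it was 18.3. No library outside the keratinocytes passed 26.308 FPKM, while the lowest keratinocyte library was at 59.189 FPKM.

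Prl2c3 was also highest in keratinocytes and lowest in ADSCs on average, at a lower level in iSEPs and keratinocytes than Prl2c5. In keratinocytes it stood at 8.206, 14.398 and 12.585 FPKM, and in in vitro iSEPs at 3.32, 2.649 and 2.91 FPKM. In in vivo iSEPs it was at 0.127, 0.117 and 9.614 FPKM, from 3, 3 and 259 reads. Mouse 3 of the in vivo iSEPs thus exceeded the lowest keratinocyte library, and the 2 groups overlapped. ADSCs had 0.148, 0 and 0.127 FPKM from 4, 0 and 3 reads, which overlapped the 2 low in vivo libraries. Group means were 11.7 ± 3.18 FPKM in keratinocytes, 3.29 ± 5.48 in in vivo iSEPs, 2.96 ± 0.338 in in vitro iSEPs and 0.0917 ± 0.0801 in ADSCs (SD, n = 3 each). The ratio of keratinocytes to in vivo iSEPs was 3.57, or 96.1 without in vivo mouse 3, and that of keratinocytes to in vitro iSEPs was 3.96.

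Prl2c2 was the lowest of the 3 genes on average. It was at 2.754, 4.017 and 3.947 FPKM in keratinocytes, from 65, 91 and 93 reads. In vitro iSEPs had 0.398, 1.152 and 1.029 FPKM, and in vivo iSEPs 0.228, 0.084 and 2.804 FPKM, the last again from mouse 3. In vivo mouse 3 was just above the lowest keratinocyte library, so those groups overlapped. In ADSCs it had no read in any library, and a limit set at 3 reads per library would be 0.137 FPKM. Against that set limit the group mean was 26.1-fold higher in keratinocytes (3.57 ± 0.71 FPKM) and 6.27-fold higher in in vitro iSEPs (0.86 ± 0.405 FPKM, SD, n = 3 each). The in vivo mean, 1.04 ± 1.53 FPKM, rested on mouse 3, and without it was 0.156 FPKM, close to that limit. The ratio of keratinocytes to in vivo iSEPs was 3.44, or 22.9 without in vivo mouse 3, and to in vitro iSEPs it was 4.16.

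Of the 3 genes, all 3 had each keratinocyte library above each ADSC library, a pattern shared by 43.6% of the 12364 genes tested, and above each in vitro iSEP library (23% of genes). Only Prl2c5 had each keratinocyte library above each in vivo iSEP library, as did 16.2% of genes. On the log2(FPKM + 1) scale the differences between keratinocytes and in vivo iSEPs were 4.68 for Prl2c5, 2.39 for Prl2c3 and 1.40 for Prl2c2. The last contrast is the one by which the genes were chosen, and nothing is read from these counts.

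The comparison of in vitro iSEPs with ADSCs was not used in the choice and was tested. Prl2c5 rose by a log2 difference of 4.07 ± 0.85 (SE), with an adjusted p of 0.002 in limma's moderated test over all genes, and was higher in 3 of 3 mice. Prl2c3 rose by 1.86 ± 0.68 (limma adjusted p = 0.0379), also in 3 of 3 mice. The Prl2c2 difference was 0.87 ± 0.39 and did not pass the threshold of 0.05 (limma adjusted p = 0.0822), although its libraries did not overlap. In the same comparison 32.1% of all genes tested were called higher, and 37.7% had each in vitro library above each ADSC library, so a rise was common. The Prl2c5 call held in each of the 20 alternatives, with adjusted p from 8.99e-06 to 0.0104. The Prl2c3 call was lost when any single ADSC or in vitro library, or keratinocyte mouse 3, was left out (limma adjusted p = 0.0509 to 0.0924). In a fit of in vitro iSEPs and ADSCs alone the SE of Prl2c3 was 0.15, and its call held (limma adjusted p = 4.7e-05). Without in vivo mouse 3, whose spread enters the pooled fit, the Prl2c2 difference passed at limma adjusted p = 0.00228.

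Prl2c5 took most of the summed proliferin level in the 9 epithelial libraries. It made up 84.4%, 90.3% and 91.1% of the summed FPKM in keratinocytes of mice 1, 2 and 3. In in vitro iSEPs its share was 79.7%, 74.3% and 87.0%. It was, for in vivo iSEPs, 74.2%, 81.9% and 67.7%. The summed level itself ran from 1.11 FPKM in in vivo mouse 2 to 190 FPKM in keratinocytes of mouse 2. Prl2c3 was 7.43% to 13.9% of the Prl2c5 level in keratinocytes and 36.9% in in vivo mouse 3, the highest of the 9 libraries. That library thus carried more Prl2c3 for its Prl2c5 than any keratinocyte or in vitro iSEP library. Over the 6 libraries with at least 20 reads of Prl2c2, Prl2c3 was 2.3 to 3.58 times as high as Prl2c2 per length. Near-identical copies can share reads, and the part of that in these ratios was not tested. Over the 12 libraries, which share depth and group, Pearson's r of log2(FPKM + 1) was 0.973 between Prl2c3 and Prl2c5, 0.968 between Prl2c2 and Prl2c3 and 0.95 between Prl2c2 and Prl2c5, given as a description.

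**Figure D2:**
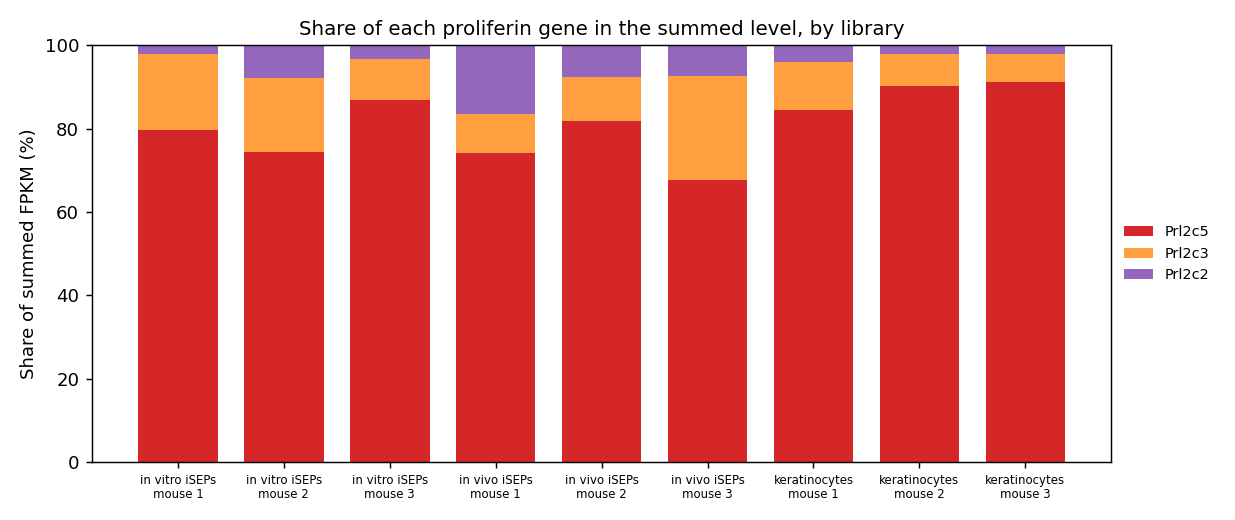
Share of Prl2c5, Prl2c3 and Prl2c2 in their summed FPKM, in percent, in the 9 iSEP and keratinocyte libraries, as stacked bars with 1 bar per library. Prl2c5 takes between 67.7% (in vivo iSEPs, mouse 3) and 91.1% (keratinocytes, mouse 3); the bars of in vivo mice 1 and 2 rest on 24 and 23 reads of Prl2c5.

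The rest of the prolactin family was looked at for the same cells. These hormones arose by duplication on chromosome 13 and act mainly in pregnancy. Of 23 other genes (the growth hormone gene included), 20 stayed below the filter of 1 FPKM in 3 libraries. Prolactin itself (Prl) reached at most 0.497 FPKM, and Prl2a1 at most 0.813 FPKM, while Prl7b1 was at 1.05 FPKM in keratinocytes of mouse 2. The exceptions were Prl8a9, Prl8a1 and Prl8a6, and Prl6a1, under the filter, was at 0.578, 0.723 and 1.16 FPKM in keratinocytes against at most 0.194 elsewhere.

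Prl8a9 (chr13:27557996-27564606, minus strand), a placental family member, had a pattern near that of Prl2c5. It was at 14.9, 83.8 and 86.3 FPKM in keratinocytes, at 4.23, 2.66 and 1.86 in in vitro iSEPs, at 2.07, 2.59 and 14.2 in in vivo iSEPs and at 0, 0.037 and 0.154 in ADSCs. Keratinocytes of mouse 1 were the lowest of their group and in vivo mouse 3 the highest of its group, as for Prl2c5, and the keratinocyte libraries lay above the rest. Its log2 difference was 3.15 ± 0.69 between keratinocytes and in vivo iSEPs (limma adjusted p = 0.0193) and 3.69 ± 0.69 between keratinocytes and in vitro iSEPs (limma adjusted p = 0.00799). These comparisons share the keratinocyte libraries. Of all genes tested, 4.08% were called higher in keratinocytes than in in vivo iSEPs and 6.12% higher than in in vitro iSEPs. The call against in vivo iSEPs was lost without in vivo mouse 2, keratinocyte mouse 2 or keratinocyte mouse 3, with adjusted p up to 0.0911, and in a fit of those 2 groups alone (limma adjusted p = 0.124). Between in vitro iSEPs and ADSCs it rose by 1.84 ± 0.69 (limma adjusted p = 0.0419), a call lost when any 1 of those 6 libraries was left out, with adjusted p up to 0.116. Over the 12 libraries its Pearson r with Prl2c5 was 0.914.

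Prl8a1 and Prl8a6, 2 further placental members, were near 0 outside keratinocytes and passed the filter through keratinocytes alone, so a difference was bound to be found. Prl8a1 was at 1.82, 6.99 and 8.46 FPKM in keratinocytes and at most 0.546 elsewhere, and differed from in vivo iSEPs by 2.45 ± 0.36 (limma adjusted p = 0.00288; 0.0513 in a fit of the 2 groups alone). Prl8a6 was at 1.34, 2.89 and 2.04 FPKM in keratinocytes and at most 0.487 elsewhere, and differed by 1.50 ± 0.20 (limma adjusted p = 0.0018). Keratinocytes of mouse 1 were again the lowest of the group for both.

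Beside this, a marker of another part of the skin moved in the same libraries. Krt79, a keratin of the hair canal and sebaceous duct, was at 2.04, 17.9 and 12.2 FPKM in keratinocytes of mice 1 to 3 and at most 0.722 FPKM elsewhere, and it too passed the filter through keratinocytes alone (2.89 ± 0.52 against in vivo iSEPs, limma adjusted p = 0.00799). The hair follicle list of 8 genes summed to 33.4 to 55.0 FPKM in keratinocytes, 13.1 to 22.2 in in vivo iSEPs, 17.7 to 28.7 in in vitro iSEPs and 4.48 to 13.4 in ADSCs. Of these genes Krt25 was at 0 in all 12 libraries and 6 of the 8 were under 1 FPKM in all keratinocyte libraries. Most of the keratinocyte sum was Sox9, at 30.8, 36.8 and 35.3 FPKM. Sox9 was not called against in vivo or in vitro iSEPs (limma adjusted p = 0.0548 and 0.218), but was called against in vivo iSEPs without in vivo mouse 3. Krt71, under the filter, was lower in keratinocytes (0.061 to 0.077 FPKM) than in in vivo iSEPs (0.319 to 0.672 FPKM). Such hair follicle cells were not counted. The part of such cells in the proliferin levels was not tested.

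**Figure D3:**
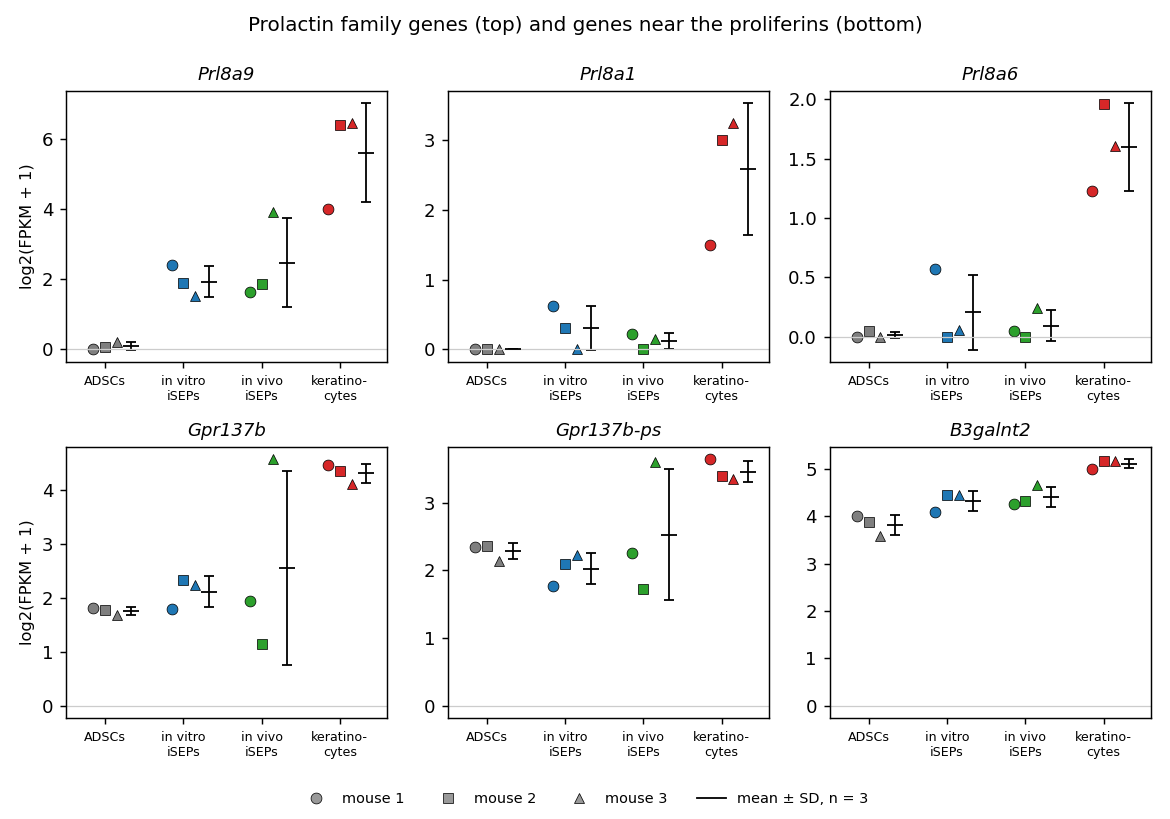
Levels as log2(FPKM + 1) of 3 other prolactin family genes (top) and of 3 genes near the proliferins on chromosome 13 (bottom) in each library, each with its own vertical axis. Points are libraries, symbols are mice, and black marks are the mean ± SD of 3 libraries. Prl8a9 shows low keratinocytes in mouse 1 and high in vivo iSEPs in mouse 3, and Gpr137b and Gpr137b-ps show the latter.

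The cells were then checked for a trophoblast programme, since proliferins mark trophoblast giant cells. None of the 6 giant cell genes (Hand1, Ctsq, Prl3d1, Prl3b1, Prl2a1 and Ctsj) passed the filter, and their sum was at most 0.813 FPKM in any library and 0.598 to 0.634 FPKM in keratinocytes. The transcription factor Hand1, which giant cells need, was at 0 in 11 of the 12 libraries. Of 18 placenta and trophoblast genes, 3 passed the filter. Tfap2c, a transcription factor of trophoblast that epidermis also uses, was at 8.72, 8.64 and 8.38 FPKM in keratinocytes, 15, 12 and 7 in in vivo iSEPs and 10.5, 15.4 and 13.5 in in vitro iSEPs, against at most 0.013 in ADSCs, and rose in in vitro iSEPs by 3.80 ± 0.22 (limma adjusted p = 1.24e-07). The imprinted gene Peg10 fell by 2.36 ± 0.24 in the same comparison (limma adjusted p = 1.19e-05), where 21.7% of all genes were called lower. Peg10 was at most 0.264 FPKM outside ADSCs and passed the filter through ADSCs alone, so a fall was bound to be found. Rhox5, a homeobox gene of placenta and testis, was at 131 FPKM in in vitro mouse 2 and at most 3.46 FPKM in the other 11 libraries. None of these 3 was called between keratinocytes and in vivo iSEPs, and none was under an unadjusted limma p of 0.05. Without in vivo mouse 3 Tfap2c was called lower in keratinocytes, by a log2 difference of -0.59 (limma adjusted p = 0.039), against -0.31 with it (adjusted p = 0.467). In the keratinocyte libraries the 5 giant cell genes other than Prl2a1 were at or near 0. Prl2a1 itself, under the filter, was at 0.615, 0.521 and 0.616 FPKM there. It was at 0 in ADSCs, at most 0.109 FPKM in in vivo iSEPs and at most 0.813 FPKM in in vitro iSEPs. Elf5, of the placenta and trophoblast list and under the filter, was at 0.706, 0.425 and 0.393 FPKM in keratinocytes and at most 0.163 elsewhere. Syna, also under the filter, was lower in keratinocytes (0.114 to 0.205 FPKM) than in in vivo iSEPs (0.374 to 0.549 FPKM).

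Among the known inducers of proliferin, Fos was highest in in vitro iSEPs rather than in keratinocytes. Of 21 listed genes 20 passed the filter, and Fosb did not. Against in vivo iSEPs, keratinocytes had 0 called higher and 1 lower, the serum response factor gene Srf (-0.61 ± 0.16, limma adjusted p = 0.0415), where 3.41% of all genes were called lower and the list median was -0.02 against 0.05 over all genes. At an unadjusted limma p under 0.05 there were 2 higher and 3 lower. Without in vivo mouse 3, Tgfa, Pdgfb and Mapk3 were called higher as well, where 7.61% of all genes were. The Srf call was lost without any 1 of 6 libraries (ADSC mouse 2, in vitro mouse 3, in vivo mouse 2 and keratinocytes of each mouse) and with the mouse as a replicate block. Against in vitro iSEPs they had 0 higher and 2 lower, Fos and Fosl1, beside 5.22% of all genes. Fos, the partner of Jun in AP-1, was at 18, 15.4 and 13 FPKM in keratinocytes, 38.6, 38.8 and 40.7 in in vitro iSEPs, 10.2, 19.1 and 13.1 in in vivo iSEPs and 4.21, 2.85 and 5.38 in ADSCs. In vitro iSEPs lay above the rest without overlap, and keratinocytes differed from them by -1.30 ± 0.23 (limma adjusted p = 0.00547). The Fosl1 difference was -1.22 ± 0.34 (limma adjusted p = 0.0431), a call lost without ADSC mouse 2, in vitro mouse 1 or 2 or any keratinocyte library, and with the replicate block. In Fos the keratinocytes thus stood below the in vitro iSEPs and above the ADSCs. The part of Fos in the proliferin levels was not tested.

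Between in vitro iSEPs and ADSCs, where Prl2c5 rose, 9 of the 20 inducers were higher and 2 lower, with a list median of 0.42 against 0.15 over all genes, beside 32.1% and 21.7% of all genes. Fos rose by 3.00 ± 0.23 (limma adjusted p = 9.6e-07). The growth factor genes Pdgfb and Tgfa, which encode ligands of the PDGF and EGF receptors, rose by 4.04 ± 0.32 and 3.71 ± 0.35, and Myc by 1.99 ± 0.26. Tgfa was at 0.055, 0.045 and 0.087 FPKM in ADSCs and at 12.4, 13.7 and 12.7 in in vitro iSEPs, and its level in keratinocytes, 16, 11.3 and 10.9 FPKM, was near the latter. Fgf2, a fibroblast growth factor that induces proliferin in cultured cells, fell by 3.68 ± 0.14 (limma adjusted p = 4.71e-09), from 13, 14.3 and 15.2 FPKM to 0, 0.339 and 0.234. It was at most 0.339 FPKM outside ADSCs and passed the filter through ADSCs alone, so this fall was bound to be found. Prkca, a protein kinase C gene, fell by 0.70 ± 0.19. Fgf2 was thus highest in ADSCs, which differ from the other groups in both cell type and medium. The part of Fgf2 or of the medium in the proliferin levels was not tested. The glucocorticoid receptor gene Nr3c1 was between 12.4 and 16.7 FPKM over the 12 libraries.

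**Figure D4:**
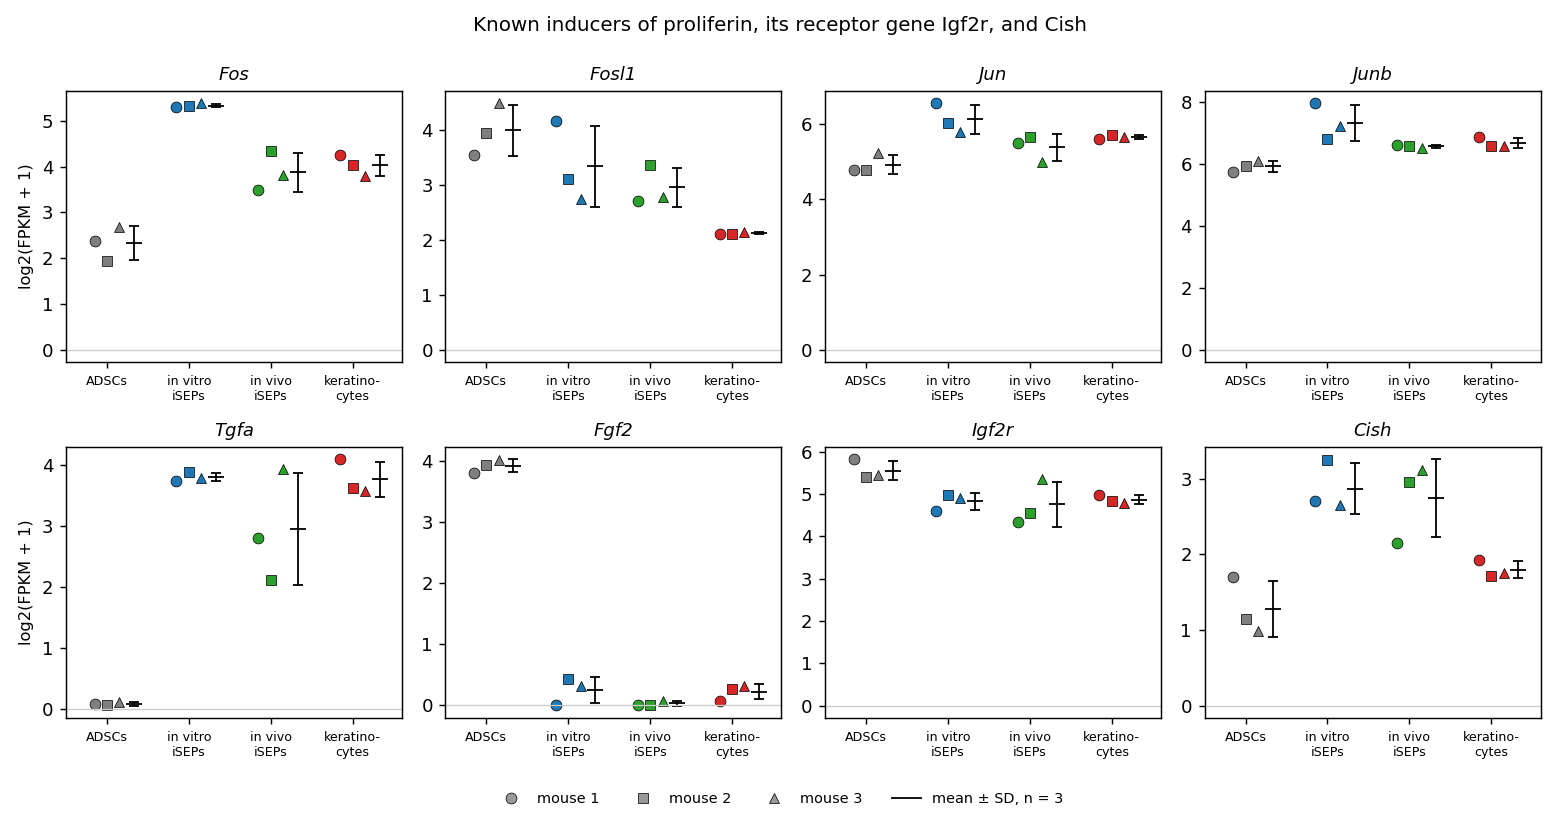
Levels as log2(FPKM + 1) in each library of 4 AP-1 genes (Fos, Fosl1, Jun, Junb), the growth factor genes Tgfa and Fgf2, the proliferin receptor gene Igf2r and the cytokine signalling inhibitor Cish, each with its own vertical axis. Points are libraries, symbols are mice, and black marks are the mean ± SD of 3 libraries. Fos is highest in the 3 in vitro iSEP libraries, at 38.6 to 40.7 FPKM, and Igf2r highest in ADSCs on average.

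The receptor gene was highest in ADSCs, the group with almost no proliferin reads. Igf2r was at 55.7, 41.1 and 43 FPKM in ADSCs, 23.4, 30.5 and 28.8 in in vitro iSEPs, 19.3, 22.7 and 40.1 in in vivo iSEPs and 30.6, 27.7 and 26.5 in keratinocytes. ADSC libraries lay above the others, and the 3 epithelial groups overlapped. It fell by 0.73 ± 0.23 in in vitro iSEPs against ADSCs (limma adjusted p = 0.0194), a call lost without ADSC mouse 1 or in vitro mouse 1, with adjusted p up to 0.0765. The prolactin receptor gene Prlr did not pass the filter and reached at most 0.373 FPKM, in keratinocytes of mouse 1.

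Of 13 listed genes of receptors and signalling, 12 passed the filter. None was called in either direction between keratinocytes and in vivo iSEPs, where 7.48% of all genes were called and 1 gene each way was under an unadjusted limma p of 0.05, and the most abundant of the list, the cation-dependent mannose 6-phosphate receptor gene M6pr, was at 69.4, 90 and 91.9 against 69.6, 74.8 and 66.6 FPKM. In keratinocytes against in vitro iSEPs the kinase gene Jak1 was higher by 0.43 ± 0.12 and Cish, which encodes an inhibitor of STAT5 signalling, was lower by a log2 difference of -1.07 ± 0.27 (limma adjusted p = 0.0468 and 0.031). The Jak1 call was lost without each library but in vitro mouse 1 and in vivo mice 1 and 3, the Cish call without any keratinocyte or in vitro library, and both with the replicate block. Between in vitro iSEPs and ADSCs 1 gene was higher, Cish by 1.59 ± 0.27, and 5 were lower, among them the growth hormone receptor gene Ghr by a log2 difference of -1.67 ± 0.29, Jak2 by -1.14 ± 0.19, Jak1 by -1.04 ± 0.12 and Stat3 by -0.83 ± 0.16, beside 32.1% and 21.7% of all genes. The list median was -0.78, against 0.15 over all genes.

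Other secreted proteins that growth factors induce in fibroblasts moved in both directions. All 9 listed genes passed the filter. Between in vitro iSEPs and ADSCs 3 were lower, the protease inhibitor gene Timp1 by a log2 difference of -5.26 ± 0.71, the chemokine gene Ccl7 by -3.81 ± 0.85 and the vessel growth factor gene Vegfa by -2.43 ± 0.34, and 1 was higher, beside 21.7% of all genes called lower and 32.1% higher. The higher one was the chemokine gene Cxcl1, by 1.97 ± 0.76 (limma adjusted p = 0.0466), a call lost without ADSC mouse 2 or 3, in vitro mouse 1 or 2, in vivo mouse 2 or any keratinocyte library, and with the replicate block. Without in vivo mouse 3 the protease gene Plau was called higher as well. None of the 9 was called by limma between keratinocytes and either kind of iSEP. Of all genes, 4.08% were called higher and 3.41% lower against in vivo iSEPs, and 6.12% and 5.22% against in vitro iSEPs. At an unadjusted limma p under 0.05 there were 2 of the 9 higher against in vivo iSEPs and 1 lower against in vitro iSEPs. Without in vivo mouse 3, which also enters the pooled spread, 4 were called higher against in vivo iSEPs (Ctsl, Plau, Spp1 and Timp1, where 7.61% of all genes were), and against in vitro iSEPs Ctsl was called higher and Ccl2 and Ccl7 lower (9.33% and 7.71%). The 2 with the highest levels were Spp1, which encodes osteopontin, at 322, 347 and 283 FPKM in keratinocytes against 15.8, 32 and 444 in in vivo iSEPs, and Ctsl, a lysosomal and secreted protease gene, at 412, 450 and 418 against 187, 239 and 546 FPKM. In both, in vivo mouse 3 was the highest of its group by far, as for the proliferins. Without it the Ctsl difference between keratinocytes and in vivo iSEPs was 1.01 (limma adjusted p = 0.0139), against 0.55 with it (adjusted p = 0.378). The Spp1 difference was 3.75 without it (limma adjusted p = 0.00195) and 2.34 with it (adjusted p = 0.189).

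The genes around the proliferins were taken as every other row that starts within 1 Mb of a member. Of 16 such genes 13 passed the filter. In keratinocytes against in vivo iSEPs 1 was higher and 0 lower, B3galnt2, a glycosyltransferase gene, by 0.70 ± 0.15 (limma adjusted p = 0.0195), beside 4.08% of all genes called higher. That call was lost without in vivo mouse 2, keratinocyte mouse 2 or keratinocyte mouse 3. Against in vitro iSEPs 3 were higher in them and 0 lower, Gpr137b-ps by 1.44 ± 0.37, B3galnt2 by 0.79 ± 0.15 and Ero1lb, an oxidoreductase gene of the endoplasmic reticulum, by 0.51 ± 0.13, beside 6.12% of all genes. Without in vivo mouse 3 the counts were 3 and 4 higher, with Gpr137b in both, beside 7.61% and 9.33% of all genes. The Gpr137b-ps call was lost without ADSC mouse 2 or any in vitro or keratinocyte library, and the Ero1lb call without in vitro mouse 2 or 3 or any keratinocyte library. The list medians were 0.01 and 0.10 against 0.05 and 0.02 over all genes.

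The nearest row on the far side of Prl2c5 was Gpr137b (chr13:13357620-13393624, minus strand), which encodes a membrane protein of lysosomes, and Gpr137b-ps (chr13:12614065-12650395, minus strand), a related copy by its name, lies on the other side of Prl2c3. Gpr137b was at 20.9, 19.4 and 16.4 FPKM in keratinocytes, 2.82, 1.2 and 22.8 in in vivo iSEPs, 2.45, 4 and 3.72 in in vitro iSEPs and 2.51, 2.43 and 2.2 in ADSCs. It was high in the 3 keratinocyte libraries and in in vivo mouse 3 and low in the other 8. Against ADSCs it rose in keratinocytes by 2.55 ± 0.65 (limma adjusted p = 0.00638), where 32.8% of all genes were called higher. Against in vivo iSEPs the difference of 1.76 ± 0.65 did not pass (limma adjusted p = 0.131), and without in vivo mouse 3 it was 2.77 and passed (adjusted p = 0.000106). Against in vitro iSEPs it was 2.19 ± 0.65 (limma adjusted p = 0.0524) and passed when any 1 in vivo library was left out, with adjusted p down to 0.000183 without mouse 3. Gpr137b-ps was at 11.5, 9.54 and 9.17 FPKM in keratinocytes and at 3.78, 2.31 and 11.1 in in vivo iSEPs, and its difference there passed only without in vivo mouse 3 (limma adjusted p = 0.157 with it and 0.00106 without). The pair may share reads, so their levels are uncertain. Next to Gpr137b on its other side, the basement membrane gene Nid1 went the other way, with a log2 difference of -5.95 ± 0.48 between keratinocytes and ADSCs (limma adjusted p = 1.69e-06). Over the 12 libraries Pearson's r of Gpr137b was 0.944 with Prl2c2, 0.901 with Prl2c3 and 0.829 with Prl2c5.

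Genes were ranked by the likeness of their pattern to each proliferin, by Pearson's r of log2(FPKM + 1) over the 12 libraries, among 9525 or 9526 genes with a mean of at least 5 FPKM in some group. After Prl2c4 and Prl2c3, those nearest to Prl2c5 were Klk8, a serine protease gene of the epidermis (r = 0.967), Pcdh1, a protocadherin gene (0.966), and Tmem30b, which encodes a subunit of lipid flippases (0.964). Klk8 was at 192 ± 8.52 FPKM in keratinocytes, 68.4 ± 43.1 in iSEPs made in vitro, 33.0 ± 51.6 in those made in vivo and 0.861 ± 0.277 in ADSCs (SD, n = 3 each). It shared the order of the Prl2c5 means. For Prl2c3 the nearest beside other Prl2c rows were Pcdh1 (0.963), the proton pump subunit gene Atp6v1c2 (0.962) and the serine protease gene Prss27 (0.959). For Prl2c2 they were 5031439G07Rik (0.976), the tight junction gene Marveld2 (0.973), the lipoxygenase gene Alox12 (0.971) and Prss27 (0.969). Prss27 was at 25.6, 21.1 and 19.1 FPKM in keratinocytes, at 0.312, 0.116 and 10.4 in in vivo iSEPs and at most 2.19 in the other libraries. Like the proliferins it was high in in vivo mouse 3 alone of its group. Klk8 and Prss27 were picked by their likeness to the proliferins over these same libraries, so a shared pattern was bound to be found.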

How the data were processed

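The authors deposited 1 table of FPKM values for 24537 genes. The tools named in the submitters' processing notes are STAR 2.5.1b, FastQC 0.11.5 and HOMER, with the genome build mm10, and per the file headers HOMER counted reads over exons on the transcript's strand and kept 1 row per gene. Nothing in the sources used here says whether the libraries mark strand. Another 3 columns of per-sample values matched no sample and were not used. Low values were whole multiples of 1 read (tolerance 0.15 reads; 100% of them in each library), which gave the reads per gene. FPKM are not counts, so values were tested as log2(FPKM + 1), a scale that understates the change of low genes, with limma 3.58.1 in R 4.3.3: 4 group means over the 12 libraries, a variance trend, and two-sided tests with Benjamini-Hochberg adjustment over the 12364 genes that reached 1 FPKM in 3 or more libraries. A gene is called at adjusted p below 0.05; ratios are of mean FPKM. The script was tested on simulated data.

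Mouse numbers in the labels pair libraries of the same animal across groups. Deviations from group means of same-numbered libraries correlated at -0.178 to 0.21 over 18 pairs. Fits had no replicate block, which was an alternative.

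The members, the gene lists and the tests were chosen with earlier results of these data known. From each list up to 4 called genes with the largest change were named per comparison, or where none was called the one with the highest level, and the 5 genes most like each member; other names were chosen after their values were seen. Lists not described in the report, of differentiating keratinocytes, melanocytes, endothelial cells and immune cells, had 6, 1, 1 and 3 kept genes, with 0, 0, 0 and 1 called between keratinocytes and in vivo iSEPs. Coding sequences were aligned with Biopython 1.88.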

Additional observations from a re-analysis of the deposited data

How the results depend on the processing

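Results were recomputed under 20 alternatives (a pseudocount of 0.1, no filter or one at 5 FPKM, median and quantile scaling, no variance trend, the 2 groups alone, the mouse as a replicate block, and each library left out). None reversed a called difference. At 5 FPKM Prl2c2, Prl8a1, Prl8a6, Krt79, Ero1lb, Rhox5 and Peg10 were not kept and gave no value. The Prl2c2 difference of in vitro iSEPs over ADSCs passed at a pseudocount of 0.1 (3.15, limma adjusted p = 0.00682) and in a fit of those groups alone (0.87, adjusted p = 0.00741), and ranged over 0.75 to 1.06 with a library left out. The Prl2c3 rise was not called without the filter (1.86, adjusted p = 0.0642), with median scaling (1.70, adjusted p = 0.0615) or with quantile normalization (1.74, adjusted p = 0.0505), and ranged over 1.79 to 1.92 with a library left out. It was called in a fit of those groups alone (1.86, limma adjusted p = 4.7e-05). The median of all genes in this comparison was 0.15, which median scaling removes. The Prl2c2 level in keratinocytes over ADSCs was 1.99 with median scaling against 2.18.

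Between keratinocytes and in vivo iSEPs 925 genes were called, 424 in a fit of those groups alone and 358 to 1676 with a library left out. Between keratinocytes and in vitro iSEPs 1403 were called, and 524 to 2107 with a library left out. Between the kinds of iSEP 201 were called, 1 in a fit of those groups alone and 58 to 360 with a library left out. Pairing the libraries by mouse with a replicate block gave 128 calls there, and 845 and 1270 in the first and second comparison; for Prl2c5 in in vitro iSEPs over ADSCs the block gave adjusted p = 0.00114. It changed no call of a proliferin, and the calls of other named genes it changed are given in the report. Of 35 called results of named genes, leaving out Prl8a1, Prl8a6 and Krt79, which passed the filter through keratinocytes alone, 23 stayed called in each alternative that gave a value. Both counts still include Fgf2 and Peg10, which passed the filter through ADSCs alone. Levels under 1 FPKM rest on few reads, which limits Prl2c2 most.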
